A study of Mus musculus with 9 samples.

Results

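The collagen chains are the genes whose products wind into the collagens of the extracellular matrix. They were taken as every protein-coding row of the authors' deposited DKO against Wt gene table whose symbol is Col, a number, a and a number. That rule found 34 genes of 17511, and all 34 gene IDs matched their symbols in an Ensembl name list. RefSeq held 44 mouse genes of that name pattern, and 10 of them (Col2a1, Col4a3, Col4a6, Col6a6, Col9a1, Col10a1, Col19a1, Col22a1, Col24a1 and Col26a1) had no row. The lowest mean of any gene in the table was 2.43 normalized counts, and the filter that left out lower genes is not given in the sources used here.

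Samples were mouse large intestinal cells, prepared from fresh colon with EDTA to enrich the epithelium. Both groups carried Cdx1-/- and Cdx2f/f alleles by their strain labels, so the libraries labelled Wt are not labelled as free of Cdx1 mutation. Libraries labelled DKO were tagged vill (+) and those labelled Wt vill (-), a tag the labels do not spell out, and mice of both groups had been given tamoxifen for 6 days. RNA-seq and ATAC-seq, a transposase assay of open chromatin, each had 2 DKO and 2 Wt libraries. ChIP-seq of the intestinal homeobox factor Cdx2 had 1 library, labelled Wt, vill (-) and untreated. Whether replicates were separate animals is not stated, so p-values reflect the spread among these libraries alone, and that spread may be technical.

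Collagen chains share a glycine-led repeat, wind around each other inside the cell and assemble further outside it. Fibrillar collagens form the tensile cables of connective tissue, collagen IV forms the sheet under epithelia and around vessels and muscle, collagen VI forms beaded filaments close to cells, and multiplexins bind to basement membranes. In the gut wall most collagen mRNA is known from fibroblasts, smooth muscle and vessels, while epithelial cells make a smaller set of basement membrane components.

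The RNA libraries held 16403301 to 25494309 estimated reads. Cdx2, the floxed gene, was not called (-0.27 log2 with SE 0.21 and adjusted p = 0.301 by the authors' deposited table), and a gene total does not resolve a deleted exon. Cdx1 was lower in DKO (-1.06 log2 with SE 0.23 and adjusted p = 2.08e-05 by the authors' deposited table). The ATAC lists held 23961 to 53943 peaks. No table used here pairs transcripts with genes, so no gene has a value per RNA library, and each RNA fold change below is the authors' value over 2 against 2 libraries.

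Collagen mRNAs were lower in the libraries labelled DKO across most of the family. At a Benjamini-Hochberg adjusted p under 0.05, the authors' deposited table called 21 of the 34 chains lower and 1 higher, where it called 18.3% of all genes lower, 18.5% higher and 36.8% in either direction. Each of the 21 was at least 2-fold lower, as were 13.2% of all genes. The log2 fold change was below 0 for 31 of 34. Its median over the chains was -2.53 by the authors' deposited table, against -0.02 over all genes. The chains ranged from -8.86 for Col6a3 to 3.49 for Col18a1 by the authors' deposited table. A called log2 fold change of -3 or below, a fall of at least 8-fold, was found for 16 chains and for 4.19% of all genes.

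**Figure D1:**
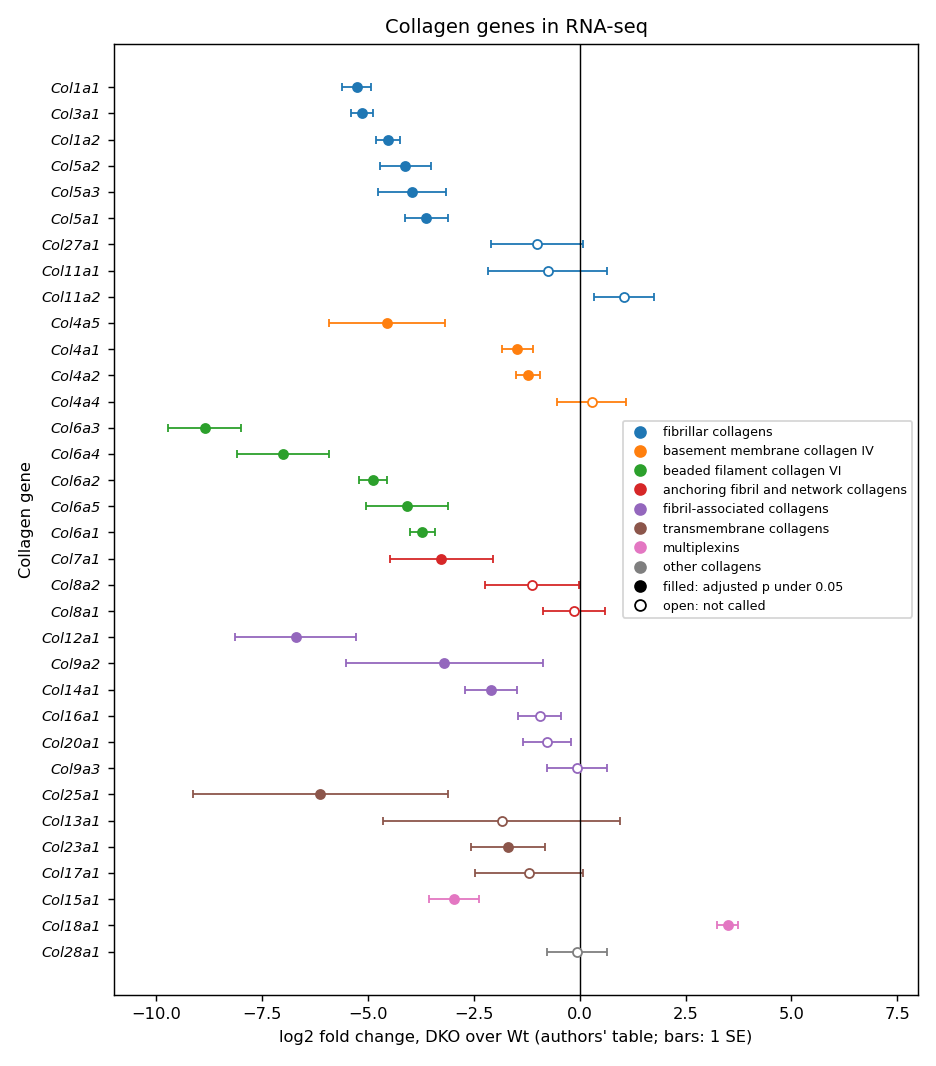
Log2 fold change (x axis, DKO over Wt, authors' deposited values with bars of 1 SE) of the 34 collagen genes (y axis), coloured by structural class and filled where the adjusted p was under 0.05. All 5 measured collagen VI chains lie below -3, and Col18a1 at 3.49 is the filled point to the right of 0.

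Markers of cell types known to make collagen were lower in the same libraries, and these values stand beside every collagen result below. By the authors' deposited table, 7 of 8 fibroblast markers were called lower and 0 higher, with a median of -3.27 log2. Of all genes it called 18.3% lower and 18.5% higher. All 8 smooth muscle markers (median -8.15) and all 8 endothelial markers (median -3.67) were lower by the authors' deposited table, as were 5 of 6 pericyte markers (median -3.95). Enteric glia and nerve markers were lower in 4 of 7, with a median of -5.34 by the authors' deposited table. Epithelial markers had a median of -0.22 by the authors' deposited table, with Krt20 and Vil1 lower and Cdh1 and Krt18 higher among 9. These epithelial shares, 22.2% each way, are near those of all genes. Of the immune lists, 2 of 6 macrophage markers (C1qa and C1qc) and 3 of 6 lymphocyte and plasma cell markers (Igha, Jchain and Mzb1) were lower, and Ptprc was higher. C1qc lost its call with p computed from the fold change over its SE (adjusted p = 0.0509), as did the glia marker Sox10 (adjusted p = 0.0720). With that p 3 of 7 glia and nerve markers were lower. That p, also used below, is not the authors' test. It returned the deposited p for 1751 genes only, and the folds may be shrunken. In these bulk samples fewer cells of a type and less RNA per cell cannot be told apart. The part of these markers in the collagen values was not tested, and the table does not give a marker list's summed level in each group.

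**Figure D2:**
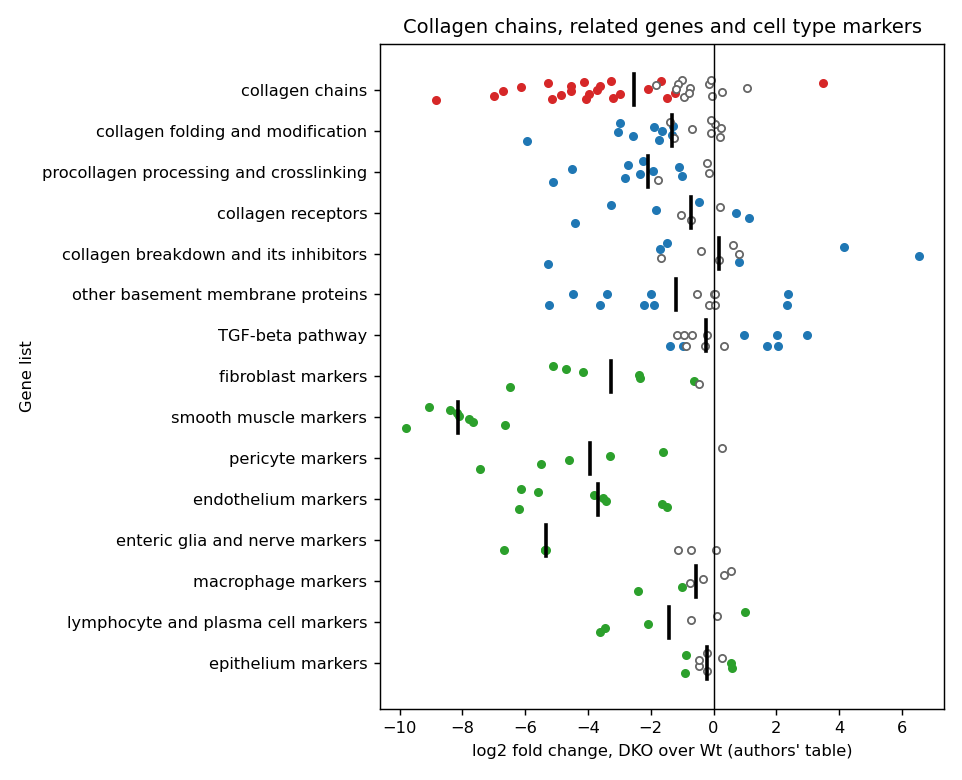
Log2 fold change (x axis, authors' deposited values) of each measured gene in the collagen chains, 6 lists of related genes and 8 lists of cell type markers (y axis). Filled points had an adjusted p under 0.05, open points did not, and the black bar is the list's median, which is -2.53 for collagen chains, -8.15 for smooth muscle and -0.22 for epithelium.

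The fibrillar collagens of types I, III and V fell, while chains of types XI and XXVII were not called. Of 9 measured fibrillar genes 6 were called lower and 0 higher by the authors' deposited table. The shares over all genes, 18.3% lower and 18.5% higher, stand beside this and each class count below. The authors' deposited table placed Col1a1 and Col1a2, which encode the chains of type I collagen, the main collagen of connective tissue, at -5.27 (SE 0.33, adjusted p = 1.81e-55) and -4.53 (SE 0.29, adjusted p = 5.61e-52) on the log2 scale. Col1a1 was thus 38.6-fold lower, and Col1a2 23.0-fold lower, by the authors' deposited table. For Col3a1, the chain of the thinner reticular fibres, the authors' deposited table gave -5.14 log2 (SE 0.26, adjusted p = 1.89e-82), a 35.3-fold lower level. The means behind these values were 564, 565 and 1129 normalized counts for Col1a1, Col1a2 and Col3a1.

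The type V chains, which take part in setting the diameter of type I fibrils, were lower as well. The authors' deposited table placed Col5a2 at -4.11 log2 (SE 0.61, adjusted p = 3.95e-11), Col5a3 at -3.97 (SE 0.80, adjusted p = 9.34e-07) and Col5a1 at -3.62 (SE 0.51, adjusted p = 1.14e-12). Their values lie within 1 SE of each other. The fibrillar chains that were not called, Col27a1, Col11a1 and Col11a2, had means of 4.83 to 37.8 normalized counts and log2 fold changes from -1.01 to 1.05 by the authors' deposited table.

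All measured chains of collagen VI were lower, 5 of 5, and this class held the lowest value of the family. The authors' deposited table placed Col6a3, the longest chain of the classical collagen VI molecule, at -8.86 log2 (SE 0.87, adjusted p = 1.64e-21) with a mean of 237 normalized counts. Its partners in that molecule, Col6a2 and Col6a1, were placed by the authors' deposited table at -4.87 (SE 0.33, adjusted p = 1.19e-46) and -3.71 (SE 0.29, adjusted p = 1.87e-35). Chains of the same molecule therefore differed in their log2 values by several SEs, and that difference was not tested. At a 463-fold lower level by the authors' deposited table, few counts of Col6a3 can remain in DKO. The size of the Col6a3 value is thus loosely set. For Col6a4 and Col6a5, which are related to Col6a3, the authors' deposited table gave -7.01 (SE 1.09, adjusted p = 2.34e-09) and -4.07 (SE 0.97, adjusted p = 2.08e-05). The same limit holds for Col6a4, 129-fold lower at a mean of 88.4 normalized counts.

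Of the collagen IV chains of basement membranes, 3 of 4 measured were lower. Col4a1 and Col4a2, whose products form the network common to basement membranes, were 2.77-fold and 2.33-fold lower by the authors' deposited table. On the log2 scale the authors' deposited table gave -1.47 for Col4a1 (SE 0.37, adjusted p = 0.000142) and -1.22 for Col4a2 (SE 0.28, adjusted p = 3.60e-05), at means of 570 and 407 normalized counts. These values are nearer to 0 than those of type I, III and VI chains, a difference that was not tested. Col4a5, a chain of a more specialised network, stood at -4.55 with a wide SE of 1.38 (adjusted p = 0.000662, mean 21.5 normalized counts) by the authors' deposited table. Col4a4 was not called, at 0.28 log2 (SE 0.82) by the authors' deposited table.

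The multiplexins, which sit in basement membranes and release anti-angiogenic fragments, moved in opposite directions. Col18a1, the source of endostatin, was the chain called higher. The authors' deposited table gave it 3.49 log2 (SE 0.25, adjusted p = 6.60e-43), an 11.3-fold higher level in DKO with a mean of 1771 normalized counts. Col15a1, its closest relative, stood at -2.97 log2 (SE 0.60, adjusted p = 5.57e-07) by the authors' deposited table, a 7.82-fold lower level with a mean of 92.6 normalized counts. The gene total does not separate the forms of Col18a1 that start at different promoters.

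Among the fibril-associated collagens, which bind to fibrils, 3 of 6 measured were lower and 0 higher. The authors' deposited table placed Col12a1 at -6.71 log2 (SE 1.42, adjusted p = 9.00e-06) and Col14a1 at -2.10 (SE 0.61, adjusted p = 0.000518), with means of 50.3 and 58.6 normalized counts. Few counts of Col12a1, 104-fold lower, can remain in DKO, so the size of its value is loosely set. Col9a2, best known from cartilage, had a mean of 8.28 normalized counts and stood at -3.19 (SE 2.33, adjusted p = 0.0327) by the authors' deposited table. Its call was lost with p computed from the fold change over its SE (adjusted p = 0.345). Col16a1 and Col20a1 were not called, at -0.95 (SE 0.51, adjusted p = 0.0726) and -0.78 (SE 0.57, adjusted p = 0.182) by the authors' deposited table, and neither was Col9a3.

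The anchoring, network and transmembrane collagens all had means under 50 normalized counts. Col7a1, which forms anchoring fibrils, stood at -3.26 log2 (SE 1.22, adjusted p = 0.00176) by the authors' deposited table. The network collagens Col8a1 and Col8a2 were not called. Of 4 transmembrane collagens 2 were lower, and the authors' deposited table placed Col25a1 at -6.12 (SE 3.01, adjusted p = 0.00178) and Col23a1 at -1.69 (SE 0.88, adjusted p = 0.0273). Both calls were lost with p from the fold change over its SE (adjusted p = 0.117 and 0.143). Whether a group was at 0 counts is not given by the table, so the size of the Col25a1 value is loosely set. Col17a1, the transmembrane collagen of hemidesmosomes, and Col13a1 were not called. Col13a1 and the fibrillar Col11a1 lay just outside the threshold, with adjusted p = 0.0505 and 0.0512 by the authors' deposited table, and Col9a2 just inside it.

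Most of the chains that were not called were thinly covered. Of 17 chains whose mean was 50 normalized counts or more, 14 were called lower and 1 higher by the authors' deposited table, where 19.5% of all genes of that depth were lower and 24.7% higher. Of the other 17 it called 7 lower and 0 higher, against 15.7% and 4.58% of all genes under that mean. The shallower set thus holds 10 of the 12 chains that were not called.

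**Figure D3:**
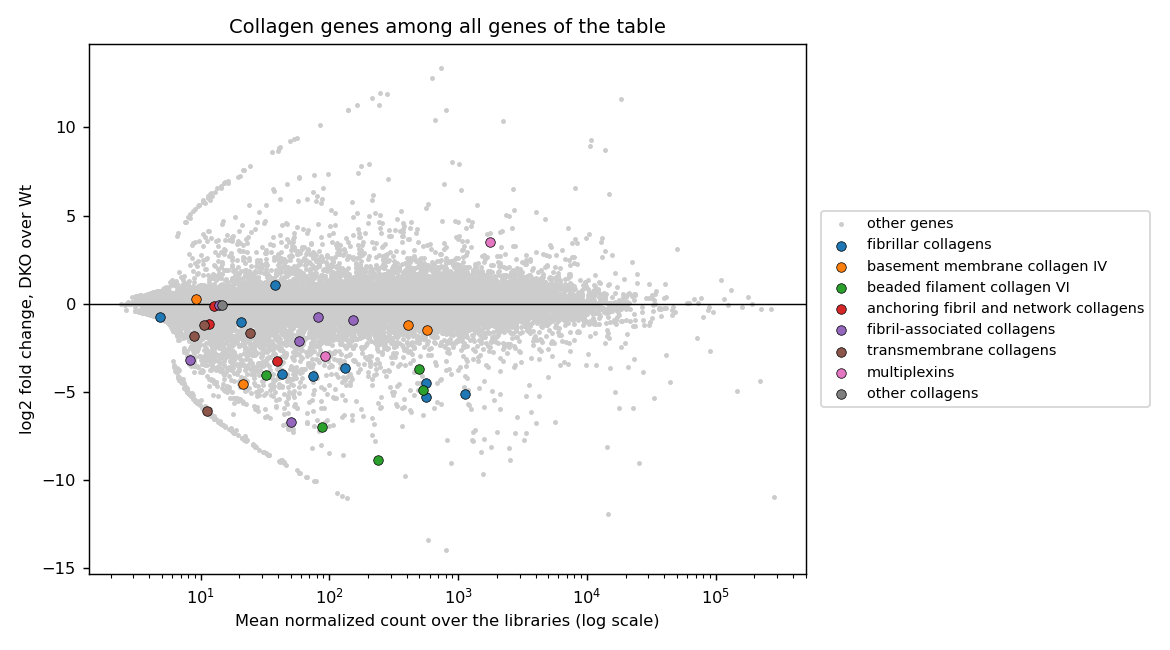
Log2 fold change (y axis, DKO over Wt) against mean normalized count (x axis, log scale) for all 17511 genes of the authors' deposited table in grey and the 34 collagen genes coloured by class. Of the 17 chains at a mean of at least 50 normalized counts, 16 lie below 0, and Col18a1 lies above 3.

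Several chains lie next to each other in the mouse genome, here by RefSeq spans on GRCm38, and each of the 4 pairs within 200 kb held chains that were both lower. Of all 34 chains 61.8% were called lower, and the limit of 200 kb was not varied. Col3a1 (chr1:45311538-45349706) and Col5a2 (chr1:45374331-45503282) are 24624 bp apart. Col6a5 and Col6a4 on chromosome 9 are 27854 bp apart, and Col6a2 and Col6a1 on chromosome 10 are 85161 bp apart. Past the limit, Col6a1 (chr10:76708792-76726044) is followed by Col18a1 (chr10:77052178-77166530), the chain called higher. Col9a3 and Col20a1 on chromosome 2, also farther apart than 200 kb, were not called. Col4a1 (chr8:11198423-11312889) and Col4a2 (chr8:11312805-11449287) are transcribed away from each other from starts 21 bp apart, with spans that overlap by 85 bp. Whether counting used strand is not given in the sources used here, so reads of Col4a1 and Col4a2 in that overlap cannot be told apart. The median span of the chains was 106452 bp, against 19419 bp for all genes placed.

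Most collagen starts had no ATAC peak within 1 kb in any given library. In Wt replicates 1 and 2 a peak lay at 10 and 15 of the 34 starts (29.4% and 44.1%), against 74.3% and 76.3% of all 16370 genes placed. In DKO replicates 1 and 2 it lay at 7 and 6 starts (20.6% and 17.6%), against 27.4% and 41.0%. The DKO libraries differed in peak number, with 40101 in replicate 1 and 23961 in replicate 2. Over all genes, replicate 2 with fewer peaks had the larger share of starts with a peak. Peak presence was not tested.

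**Figure D4:**
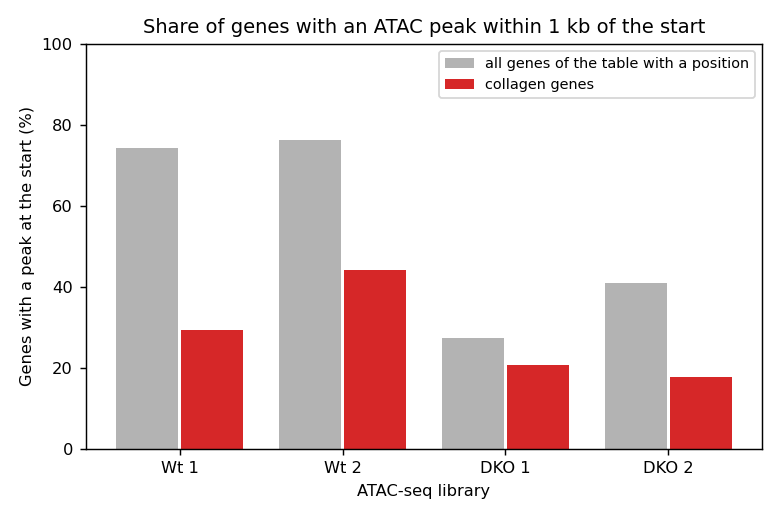
Percentage of genes with an ATAC peak within 1 kb of the start (y axis) in each library (x axis), for all genes placed in grey and the 34 collagen genes in red. The collagen bars stand at 29.4% and 44.1% in Wt, where all genes stand at 74.3% and 76.3%.

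At 14 chains (41.2%) no library had a peak at the start, a class that held 20.4% of all genes. It included Col3a1, Col6a3, Col6a1, Col6a4, Col5a2, Col12a1, Col4a5 and Col7a1, all called lower in RNA. Among genes called with a log2 fold change of -3 or below, 8 of 16 chains had no peak at the start in any library, against 44.0% of the 686 such genes placed. For Col1a1, Col5a2, Col9a3, Col12a1 and Col14a1 no start was in the promoter table, and both ends of the span were used. Over the 29 chains with a known start, 11 had no peak, 2 a peak in every library, 3 in both Wt alone, 1 in both DKO alone and 12 another combination, against 14.6%, 23.5%, 32.7%, 0.215% and 29.0% of genes with a known start.

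Col16a1, Col8a2 and Col18a1 had a peak at the start in both Wt and in neither DKO library (8.82% of the chains), a class that held 30.0% of all genes. This count rests on the choice of Wt libraries: it was 9 without Wt replicate 1, against 32.5% of all genes, and 5 without Wt replicate 2, against 31.1%. At Col16a1 (chr4:130047817-130099277) the fold enrichment over local background, a ratio set by the authors' peak caller within each library, was 5.48 and 5.31 in Wt replicates 1 and 2. At Col8a2 (chr4:126286794-126314330) it was 5.17 and 4.59. The highest peaks at Col18a1 (chr10:77052178-77166530) had 3.44 and 3.83 and sat at the upstream of its 2 starts in the promoter table. No library had a peak within 1 kb of its downstream start. The chain with higher RNA in DKO thus had a start peak in both Wt libraries and in neither DKO library. Its highest Wt peaks had a -log10 q of 2.10 and 3.14 in replicates 1 and 2. At a -log10 q of at least 5 no start peak of Col18a1 stayed in any library.

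The stretches before those 3 starts are shown because peaks of both Wt libraries overlap each of them while no DKO peak does. They come from RefSeq (GRCm38.p6), are written 5′ to 3′ on the strand of the gene and end at the base before the annotated span: chr10:77166531-77166780 on the minus strand, chr4:130047590-130047816 on the plus strand and chr4:126286544-126286793 on the plus strand.
Col18a1: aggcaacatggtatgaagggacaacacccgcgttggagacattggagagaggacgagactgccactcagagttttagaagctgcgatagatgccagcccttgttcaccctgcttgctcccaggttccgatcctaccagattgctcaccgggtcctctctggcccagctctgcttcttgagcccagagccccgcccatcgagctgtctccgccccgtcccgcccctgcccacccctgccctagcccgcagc
Col16a1: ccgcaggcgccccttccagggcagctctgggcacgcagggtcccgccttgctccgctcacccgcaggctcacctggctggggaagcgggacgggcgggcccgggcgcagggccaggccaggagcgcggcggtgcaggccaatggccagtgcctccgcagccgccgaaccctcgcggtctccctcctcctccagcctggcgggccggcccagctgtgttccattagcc
Col8a2: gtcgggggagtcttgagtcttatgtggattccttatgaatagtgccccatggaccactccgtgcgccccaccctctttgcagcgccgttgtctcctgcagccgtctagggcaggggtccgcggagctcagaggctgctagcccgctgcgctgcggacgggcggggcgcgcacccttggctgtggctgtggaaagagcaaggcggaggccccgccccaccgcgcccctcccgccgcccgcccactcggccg
The share of G and C was 62.0%, 75.8% and 70.0%. The motif TTTATNG, a short form of the sites known for Cdx factors that overlaps the reverse of the TATA box where N is A, was chosen for the search with results known and would be in capitals. None of the 3 stretches holds these letters on either strand. Of 31 promoter windows of the chains (250 bases before to 50 after a start), 5 held the motif on either strand (16.1%), those of Col6a4, Col8a1, Col11a2, Col13a1 and Col17a1. Of all 15364 windows of genes in the table, 7.52% did.

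Col6a5 had a peak at the start in both DKO and in neither Wt library, a class of 54 among the 16370 genes placed, with a fold enrichment of 4.65 and 5.22. The class held 2 chains without DKO replicate 1 and 2 without Wt replicate 1. The share of all genes was not computed for these omissions. The RNA of Col6a5 was lower in DKO. Col1a2 and Col25a1 had a peak in every library (5.88% of the chains, against 21.7% of all genes). At Col1a2 (chr6:4505618-4541543) the fold enrichment was 6.46 and 6.35 in Wt and 5.06 and 3.66 in DKO. A start peak was thus called in both DKO libraries while its RNA was 23.0-fold lower by the authors' deposited table. The DKO peaks of Col1a2 had a -log10 q of 4.75 and 2.29, against 6.63 and 6.59 in Wt. At a -log10 q of at least 5 only the Wt peaks stayed. At Col25a1 (chr3:130180358-130599884) the fold enrichment was 5.88 and 5.17 in Wt and 4.00 and 3.42 in DKO. The other 14 chains (41.2%, against 27.6% of all genes) had another combination, and for 8 of them, Col1a1, Col4a1, Col4a2, Col5a1, Col5a3, Col6a2, Col14a1 and Col15a1, the peak was in 1 Wt library alone, as at 3.59% of all genes. Col4a1 and Col4a2 share that peak, which had a fold enrichment of 3.53 in Wt replicate 2.

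**Figure D5:**
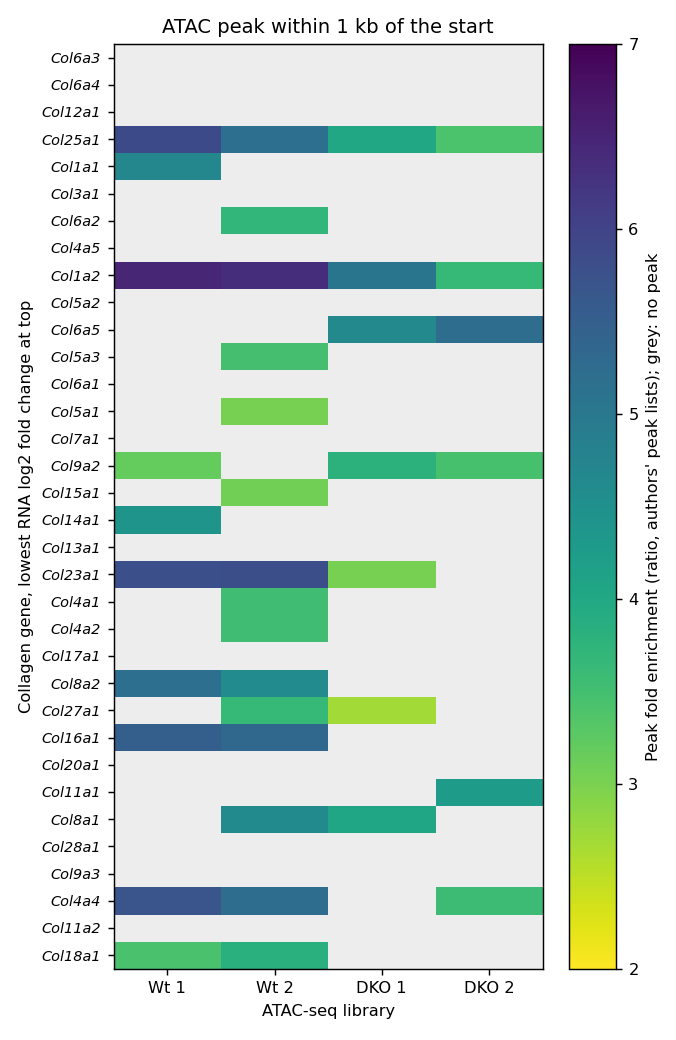
Highest fold enrichment (colour, authors' peak lists) of an ATAC peak within 1 kb of the start of each collagen gene (y axis, ordered by RNA log2 fold change with the lowest at the top) in each library (x axis), with grey for no peak. Col1a2 and Col25a1 are coloured in all 4 columns, and Col6a3, Col3a1 and Col6a1 are grey in all 4.

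Within the gene spans, merging overlapping peaks gave 149 regions in 25 of the chains. Of these, 22 regions in 11 genes had a peak in both Wt and neither DKO library, 8 in 6 genes had the reverse, 1 in Col8a1 had a peak in all 4, and 118 had another combination. Over the 53090 regions in the spans of all genes these classes held 29.0%, 3.50%, 5.68% and 61.8%. Col4a2, Col8a1, Col15a1 and Col28a1 held 3 or more regions seen in both Wt libraries alone. DKO replicates 1 and 2 had 64 and 27 peaks in the spans and Wt replicates 51 and 54, so the DKO libraries lay on either side of the Wt libraries.

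Cdx2 peaks were found in the span or 10 kb on either side of 3 of the 34 chains, Col25a1, Col8a1 and Col28a1, and of 18.1% of all genes. No collagen start had one within 1 kb, against 3.32% of all genes. All 4 peaks lay inside the spans and at least 68497 bp from the start. The Col8a1 peak (chr16:57686133-57686347, mm10) had a fold enrichment of 5.66 and overlapped ATAC peaks of 9.99 and 9.98 in Wt and none in DKO. The stronger Col28a1 peak (chr6:8023666-8023901) had a fold enrichment of 5.60 and overlapped ATAC peaks of 10.1 and 9.84 in Wt and none in DKO. Both sites were thus called open in Wt alone. The other Col28a1 peak (chr6:8025320-8025519) overlapped an ATAC peak of Wt replicate 1, and the Col25a1 peak (chr3:130522163-130522372) overlapped an ATAC peak of DKO replicate 1, each in that library alone. In RNA, Col8a1 at -0.14 log2 (SE 0.73) and Col28a1 at -0.07 (SE 0.71) were not called by the authors' deposited table, at means of 12.7 and 14.5 normalized counts. Exons were not annotated here, and the ChIP library has no replicate.

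Of the genes for collagen folding and modification, 9 of 17 measured were lower and 0 higher, against 18.3% and 18.5% of all genes, and 6 were lower with p from the fold change over its SE. Serpinh1, the collagen chaperone HSP47, was placed by the authors' deposited table at -5.94 log2 (SE 0.56, adjusted p = 9.00e-26). The prolyl hydroxylase subunit P4ha1 stood at -2.57 (SE 0.36), the lysyl hydroxylase Plod1 at -1.64 (SE 0.31) and Crtap, a partner of prolyl 3-hydroxylase, at -1.32 (SE 0.30) by the authors' deposited table. P4hb, protein disulfide isomerase, and Ppib, cyclophilin B, which serve many secreted proteins, were not called at 0.03 (SE 0.17) and -0.08 (SE 0.18) by the authors' deposited table.

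Of the genes for procollagen processing and crosslinking, 9 of 12 measured were lower and 0 higher, against 18.3% and 18.5% of all genes. This list shares Dcn and Lum with the fibroblast markers. With p from the fold change over its SE 7 were lower. The authors' deposited table placed Sparc, a collagen-binding matrix protein, at -4.50 log2 (SE 0.29) and Dcn, the fibril-coating proteoglycan decorin, at -2.34 (SE 0.33). Pcolce, an enhancer of procollagen cleavage, and Bmp1, which removes the carboxyl propeptide, stood at -1.02 (SE 0.40) and -1.09 (SE 0.40) by the authors' deposited table. The crosslinking oxidases Lox and Loxl3 and the fibril-binding Fmod were not called.

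Of 9 collagen receptors measured, 4 were lower and 2 higher, where 18.3% of all genes were lower and 18.5% higher, so the share called higher is near that of all genes. The collagen-binding integrin subunit Itga2 and its partner Itgb1 were higher, at 1.13 log2 (SE 0.38) and 0.72 (SE 0.19) by the authors' deposited table. The receptor kinase Ddr1 stood at -0.47 (SE 0.20, adjusted p = 0.0482) and Mrc2, an endocytic collagen receptor, at -3.28 (SE 0.96) by the authors' deposited table. The other lower receptors, named after their values were seen, were the kinase Ddr2 and the integrin subunit Itga10. Ddr1 and Itga10 lost their calls with p from the fold change over its SE (adjusted p = 0.0655 and 0.115), which left 2 receptors lower. Of 11 genes of collagen breakdown, 3 were lower and 3 higher, a share each way not far from the 18.3% and 18.5% of all genes. The gelatinase Mmp2 stood at -5.28 (SE 0.50), the inhibitors Timp3 and Timp2 at -1.69 (SE 0.40) and -1.47 (SE 0.28), and the membrane-bound collagenase Mmp14 at 0.82 (SE 0.23) by the authors' deposited table. The other higher genes, named after their values were seen, were Mmp9 and Mmp8, proteases known from neutrophils. Mmp8, at a mean of 13.4 normalized counts, lost its call with p from the fold change over its SE (adjusted p = 0.0727).

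Other basement membrane genes had calls in both directions, with 7 of 14 lower, against 18.3% of all genes, and 6 lower with p from the fold change over its SE. The share called higher was under the 18.5% of all genes. The laminin chain Lama5, known from epithelial basement membranes, was higher, at 2.36 log2 (SE 0.25) by the authors' deposited table. Lama3, also an epithelial laminin chain, was lower at -2.23 (SE 0.37), as was the proteoglycan perlecan, Hspg2, at -3.38 (SE 0.31) by the authors' deposited table. Lamb3 and Agrn were not called. In the TGF-beta pathway, a known inducer of collagen genes in fibroblasts, 5 of 14 genes were higher and 2 lower, against 18.5% and 18.3% of all genes. Tgfbr2, Smad4 and Smad2, which carry the signal, stood at 2.06 (SE 0.22), 1.72 (SE 0.32) and 0.97 (SE 0.24), and the inhibitory Smad7 at -1.38 (SE 0.23) by the authors' deposited table. Tgfb1 and Smad3 were not called.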

How the data were processed

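Gene values are the authors' own. Per the file headers, the deposited gene table gives a mean normalized count per gene (a signal scaled by the authors), a log2 fold change with its SE, and a p-value with its adjusted value, in columns named as by DESeq2. Adjusting the deposited p-values over all 17511 genes by Benjamini-Hochberg returned the deposited adjusted values. Fold over SE returned the deposited p within 0.01 in log10 for 1751 genes only, so the folds may be shrunken. Estimated counts per transcript, deposited by the authors, served for depth and for the direction of the table. Among features with a mean of 50000 or more and a log2 size of 4 or more, 0 transcripts were higher and 4 lower in DKO, against 0 and 3 genes in the table. The submitters' processing notes name Salmon 1.3.0, DESeq2, fastp, BWA, Bowtie2 and MACS2, with mm10 and GRCm38 as builds. For their settings nothing is given in the sources used here.

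The authors deposited 1 peak list per library, with a fold enrichment ratio, -log10 p, -log10 q and a score for each peak. Peaks were matched to RefSeq gene spans and starts on GRCm38.p6, the assembly of mm10, at an overlap of at least 1 bp (Python 3.11.15, pandas 2.3.3, numpy 2.4.6). With 2 libraries a group no exact test goes below p = 0.333, so peak presence was not tested. The code was tested on simulated data.

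The chains, lists and naming rule were chosen with earlier results of these data known. The rule names called chains, uncalled chains with a mean of at least 50, and per list up to 4 called and 2 uncalled genes of highest mean. Others complete counts of 5 or fewer and were named after their values were seen. A basement membrane gene under the rule is not reported here. The planned edgeR fit per gene was not run, because no table used here pairs transcripts with genes.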

Additional observations from a re-analysis of the deposited data

How the results depend on the processing

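The count of chains called lower was 14 to 21 and that of chains called higher was 1 at an adjusted p under 0.01, at a mean of at least 50, at 2-fold and with p from the fold change over its SE. With that p, 3 of 34 chains and 11 genes of the other lists lost their call. Genes called lower fell to 6 for folding, 7 for processing, 2 for receptors and 1 for macrophages. They fell to 6 for other basement membrane genes and 3 for glia and nerve. Over chains with a mean of at least 50 the median log2 fold change was -3.71. With that minimum, genes called lower numbered 5 for folding, 5 for processing, 1 for receptors, 3 for pericytes, 5 for endothelium and 1 for glia and nerve, since fewer genes were counted. They rose from 2 to 3 for macrophages and from 2 to 3 for epithelium. There C1qb and Lgals4 gained a call with p adjusted by Benjamini-Hochberg over the genes with that mean (adjusted p = 0.0417 and 0.0492). At an adjusted p under 0.01 they numbered 5 for processing, 2 for receptors and 1 for macrophages, and 1 epithelial marker was called higher. With peaks of -log10 q of at least 5 only, 0 chains had a start peak in every library, 4 in both Wt alone, 0 in both DKO alone and 26 in none. Shares of all genes were not computed at that cutoff, so these counts describe the chains without a background. The class of both Wt alone then held Col1a2 and no longer Col18a1. Leaving out 1 ATAC library gave 4 to 9 chains with a start peak in Wt alone (9 without Wt replicate 1, 5 without Wt replicate 2), 1 to 2 in DKO alone (2 without DKO replicate 1 or Wt replicate 1), 2 to 3 in every library and 14 to 20 in none. With a library left out, shares of all genes were computed only for Wt alone without each Wt replicate. Within 1 kb of a start, 0 chains had a Cdx2 peak. Counting only known starts, and the p from fold over SE for the lists, were alternatives chosen after seeing the data. No paired analysis was possible because the table gives no gene value per library and the peak classes are counts described without a test. Without gene values per library no RNA library was left out, and the edgeR and DESeq2 fits per gene were not run. Depth limits the chains with a mean under 50 normalized counts, and peak lists hold no depth.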
